A study of Mus musculus with 12 samples.

Results

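The genes described here are 10 protein-coding neighbours of Chd8 on mouse chromosome 14: Supt16, Hnrnpc, Rpgrip1, Rab2b, Tox4, Mettl3, Sall2, Zfp219, Arhgef40 and Ndrg2, all within 285 kb of Chd8. They were taken by name from the 46603 genes of the count tables, as a list that leaves out other genes of the same stretch such as Tmem253. The rule itself used no measured value. The question was whether transcripts of genes beside Chd8 differed in animals with the mutant allele. RNA from microdissected cortex was sequenced in 12 libraries, 3 for each genotype at each of 2 stages, on a C57Bl/6J background. At embryonic day 12.5 (E12.5) the tissue was both hemispheres, and at postnatal day 5 (P5) it was 1 hemisphere. Controls were Chd8+/+. Mutants were Chd8+/- and carried 1 wildtype copy and 1 copy from which Cre recombinase had removed exon 3 in the germline, so the deletion was present in every cell and not in a chosen cell type. The labels do not say which animal each library came from, so the p-values measure the spread between these libraries.

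CHD8 is an ATP-dependent chromatin remodeller and a high-confidence autism risk factor, and it is found mainly at active promoters. Genes beside a targeted allele are inherited together with it, and effects on them from the same chromosome are called cis effects. Several of the neighbours of Chd8 act on RNA or chromatin. Supt16 encodes the larger subunit of FACT, the complex that loosens nucleosomes ahead of RNA polymerase II. Mettl3 encodes the catalytic subunit of the enzyme that writes N6-methyladenosine (m6A) on RNA, Hnrnpc a nuclear protein that binds uridine tracts of nascent transcripts, and Tox4 an HMG-box protein of a phosphatase complex that acts on RNA polymerase II. Rab2b encodes a small GTPase of traffic between endoplasmic reticulum and Golgi, Arhgef40 a guanine nucleotide exchange factor, and Sall2 and Zfp219 zinc finger transcription factors. Ndrg2 is a cytoplasmic protein typical of astrocytes, and Rpgrip1 is a ciliary protein best known from photoreceptors.

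On GRCm38, Chd8 occupied chr14:52198151-52257723 on the minus strand (ENSMUSG00000053754). The removed exon 3 lay at chr14:52232545-52232930 and held 386 bases, 2.40% of the gene's exon bases, in the GENCODE vM21 model Chd8-201. The nearest protein-coding genes on either side are Supt16 and Rab2b, both on the same strand as Chd8, and the unclassified transcript Gm43766 begins between Chd8 and Rab2b, 1.088 kb from Chd8. Supt16 (chr14:52160419-52197239, ENSMUSG00000035726) starts 912 bases beyond the 3′ end of Chd8, and its start site was 35.3 kb from the removed exon. Rab2b (chr14:52261759-52279545, ENSMUSG00000022159) ends 4036 bases before the start of Chd8, and its own start was 46.6 kb from the exon. Tox4 (chr14:52279146-52296391, plus strand, ENSMUSG00000016831), Mettl3 (chr14:52294668-52305128, minus strand, ENSMUSG00000022160) and Sall2 (chr14:52311172-52328762, minus strand, ENSMUSG00000049532) followed on that side, at 21.4, 36.9 and 53.4 kb from Chd8. On the other side, beyond Supt16, lay Rpgrip1 (chr14:52110704-52163546, plus strand, ENSMUSG00000057132) at 34.6 kb, Hnrnpc (chr14:52073380-52104028, minus strand, ENSMUSG00000060373) at 94.1 kb and Zfp219 (chr14:52006077-52020733, minus strand, ENSMUSG00000049295) at 177.4 kb. Arhgef40 (chr14:51984719-52006251, plus strand, ENSMUSG00000004562) lay at 191.9 kb and Ndrg2 (chr14:51905271-51913488, minus strand, ENSMUSG00000004558) at 284.7 kb.

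Several of these genes run into each other, which bears on how reads could be assigned. Rab2b and Tox4 start on opposite strands and their spans overlap by 400 bases, Tox4 and Mettl3 overlap by 1724 bases at their 3′ ends, and Rpgrip1 and Supt16 overlap by 3128 bases. Of the exon bases of Rab2b, 64.0% were shared with Tox4 or with the unclassified transcript Gm43766. The share was 23.4% for Supt16, 21.1% for Mettl3, 18.7% for Tox4, 12.1% for Zfp219, 8.66% for Rpgrip1 and 4.22% for Arhgef40, and it was 0% for Ndrg2, Hnrnpc and Sall2. The P5 counting ignored strand, so reads from overlapping stretches cannot be told apart, and values of the first 4 genes are the most exposed to this.

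The promoters of Chd8 and of protein-coding genes that flank it are shown because they are the sequences nearest to the altered allele. Each RefSeq window (GRCm38.p6) runs from 250 bases before to 50 after the annotated start, 5′ to 3′ on the gene's own strand, for Chd8 chr14:52257711-52258010, Supt16 chr14:52197190-52197489, Rab2b chr14:52279346-52279645, and Tox4 chr14:52278896-52279195. Capitals mark CCGGAAG or its reverse complement, a core bound by ETS factors.
Chd8: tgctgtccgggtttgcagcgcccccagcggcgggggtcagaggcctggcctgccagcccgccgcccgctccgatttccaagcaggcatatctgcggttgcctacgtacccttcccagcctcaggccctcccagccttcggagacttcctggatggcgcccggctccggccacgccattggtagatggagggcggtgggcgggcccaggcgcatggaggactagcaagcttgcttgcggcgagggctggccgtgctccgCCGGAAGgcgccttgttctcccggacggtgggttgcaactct
Supt16: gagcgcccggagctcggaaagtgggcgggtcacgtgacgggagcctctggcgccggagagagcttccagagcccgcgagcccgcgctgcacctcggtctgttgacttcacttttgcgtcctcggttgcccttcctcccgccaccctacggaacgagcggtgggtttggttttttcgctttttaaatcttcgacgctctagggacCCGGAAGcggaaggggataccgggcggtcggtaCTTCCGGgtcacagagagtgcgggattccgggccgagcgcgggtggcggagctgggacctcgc
Rab2b: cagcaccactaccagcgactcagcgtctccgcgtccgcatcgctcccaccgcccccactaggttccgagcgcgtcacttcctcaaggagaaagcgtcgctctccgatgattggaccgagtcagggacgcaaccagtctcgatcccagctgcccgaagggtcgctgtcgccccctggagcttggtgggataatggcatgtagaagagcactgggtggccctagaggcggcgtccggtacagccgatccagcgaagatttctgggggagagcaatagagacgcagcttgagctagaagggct
Tox4: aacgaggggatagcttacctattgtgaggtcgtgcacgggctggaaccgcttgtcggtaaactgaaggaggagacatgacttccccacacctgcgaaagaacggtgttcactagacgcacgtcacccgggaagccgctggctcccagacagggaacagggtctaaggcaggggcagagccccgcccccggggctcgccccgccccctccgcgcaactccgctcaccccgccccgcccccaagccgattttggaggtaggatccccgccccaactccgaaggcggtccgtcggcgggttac
The core, searched on both strands, was present once in the Chd8 window and at 2 places in the Supt16 window, and was absent from those of Rab2b and Tox4. Over all 10 neighbours, all of which had a promoter entry, 2 held it (Supt16 and Mettl3), against 8.91% of 32544 promoter windows of the same length. The 4 printed windows were rich in CpG, with 26 for Chd8, 35 for Supt16, 25 for Rab2b and 27 for Tox4, where the median window held 7. The Rab2b and Tox4 windows shared 0 bases.

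Libraries held 38774591 to 54695236 counts on genes. Levels are given as CPM, a gene's counts scaled to a common library size. Counts per library ran from 55 to 95 for Rpgrip1 and from 312 to 472 for Rab2b, and the other 8 neighbours had at least 802. The SE of the log2 fold change between genotypes was largest for Rpgrip1 at P5 (0.16). At E12.5 it was largest for Ndrg2 (0.22), beside 0.15 for Rpgrip1. The neocortical identity genes Emx1 and Lhx2 were detected at both stages. At E12.5 the Chd8+/- replicate 2 library stood apart, with 477 summed CPM of cortical excitatory neuron markers against 606 to 758 in the other 5, and 604 CPM of meningeal markers against 255 to 392. The E12.5 Chd8+/+ replicate 3 library held 44.6 summed CPM of choroid plexus markers against 88.1 to 105 in the other 5. Of these markers, Kl and Kcnj13 averaged under 1 CPM. At P5 the Chd8+/- replicate 3 library stood apart in short RNAs made by RNA polymerase III, chosen after their values were seen. It held 2499 counts of Rn7sk against 84 to 124 in the other 5, and 909 counts of Rpph1 against 7 to 21.

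Chd8 itself was read first, as a check of the labels. At E12.5 it measured 236, 233 and 238 CPM in Chd8+/+ and 164, 169 and 164 CPM in Chd8+/-. At P5 it measured 148, 148 and 143 CPM in Chd8+/+ and 95.2, 97.7 and 94.1 CPM in Chd8+/-. Genotypes were well apart at both stages. The level in Chd8+/- was 70.3% of Chd8+/+ at E12.5 (95% interval 66.1 to 74.7%, adjusted p = 0.00562, edgeR quasi-likelihood test with Benjamini-Hochberg adjustment over 18081 genes). It was 65.5% at P5 (62.1 to 69.0%, adjusted p = 7.21e-05 over 18666 genes). The E12.5 adjusted p rose to 0.141 without Chd8+/+ replicate 3, to 0.124 without Chd8+/- replicate 1 and to 0.122 without Chd8+/- replicate 3, while the log2 fold change stayed at -0.50 in each. With the replicate number as a block it was 0.346, at a log2 fold change of -0.51.

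At E12.5 no neighbour of Chd8 passed the test between genotypes. An adjusted p under 0.05 by edgeR was reached by 0 of 10, where it was reached by 0.00553% of the genes tested (1 gene, Chd8 itself), and the smallest adjusted p among them was 0.942. None had an unadjusted p under 0.05, against 5.15% of all genes, and DESeq2 called none, against 0.0374%, with no adjusted p for Rpgrip1 at either stage. Log2 fold changes were below 0 for 5 neighbours, against 49.8% of all genes, and above 0 for 5, with a median of 0.0017 beside 0.00058 over all genes tested. All 10 of their 95% intervals lay above that of Chd8: the lowest bound was -0.35, for Ndrg2, and the upper bound of Chd8 was -0.42.

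**Figure D1:**
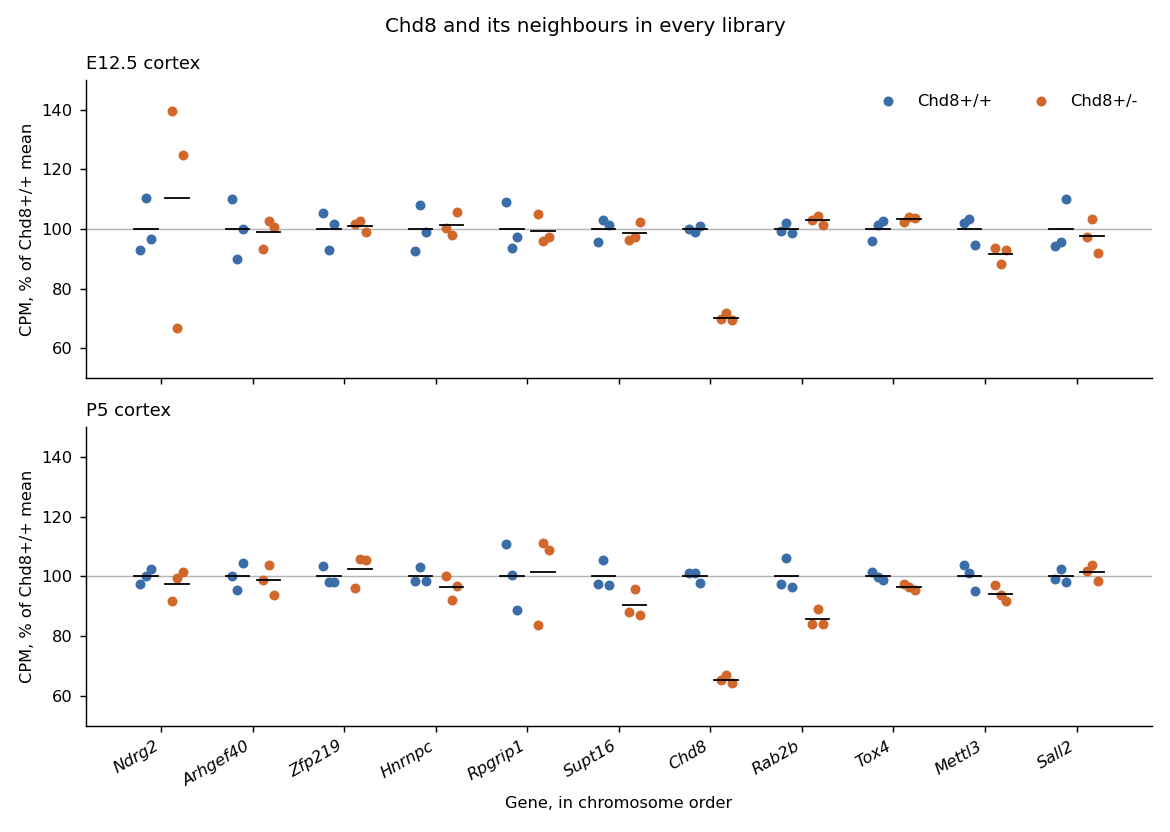
Level of Chd8 and its 10 neighbours in every library, as a percentage of the Chd8+/+ mean of the same stage (y axis), at E12.5 (top) and P5 (bottom), with genes in chromosome order. Each point is 1 library and each bar the mean of 3. The 3 Chd8+/- points of Chd8 sit far below 100 at both stages, those of Mettl3 at E12.5 and of Supt16, Rab2b and Tox4 at P5 sit below their Chd8+/+ points by less, and Ndrg2 at E12.5 is widely scattered in Chd8+/-.

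The genes at the flanks of Chd8 were first compared at E12.5. Supt16 measured 271, 291 and 287 CPM in Chd8+/+ and 272.5, 275.5 and 290 CPM in Chd8+/-, and the genotypes overlapped. Its log2 fold change was -0.02 (SE 0.05, 95% interval -0.13 to 0.09). Rab2b measured 9.04, 9.27 and 8.99 CPM in Chd8+/+ and 9.38, 9.49 and 9.23 CPM in Chd8+/-. Only the lowest of the Chd8+/- values lay within the Chd8+/+ range, and the log2 fold change was 0.04 (SE 0.07, interval -0.12 to 0.21). Tox4 measured 109, 115 and 116 CPM against 116, 118 and 117 CPM, with a log2 fold change of 0.05 (SE 0.04, interval -0.04 to 0.14), which was 0.02 without Chd8+/+ replicate 1.

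Mettl3 was the neighbour with the smallest p at E12.5. It measured 46.8, 47.3 and 43.3 CPM in Chd8+/+ and 42.8, 40.4 and 42.6 CPM in Chd8+/-. All 3 Chd8+/- libraries lay below all 3 Chd8+/+ libraries, by a small margin. Mettl3 was the 1 of 10 neighbours whose genotypes did not overlap, where 11.3% of all genes did not and 5.9% were lower without overlap. The log2 fold change of Mettl3 was -0.13 (SE 0.06, interval -0.26 to 0.0036), which missed the threshold (unadjusted p = 0.0554, adjusted p = 0.942, edgeR). The unadjusted p was under 0.05 in 4 of 19 alternatives, among them that without Chd8+/+ replicate 3 (0.0218), and the lowest adjusted p was 0.662. The summed level of 5 endothelial markers also differed between these libraries, from 157 to 169 CPM in Chd8+/+ and from 137 to 150 CPM in Chd8+/-, with 5 of 5 lower, none of them called; its part in the Mettl3 value was not tested.

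Ndrg2 was the least settled neighbour at E12.5. It measured 26.8, 31.8 and 27.9 CPM in Chd8+/+ and 40.2, 19.2 and 36.0 CPM in Chd8+/-. The Chd8+/- libraries lay on both sides of the controls. The log2 fold change was 0.14 with a wide interval (-0.35 to 0.63), and the sign turned on single libraries: it was 0.40 without Chd8+/- replicate 2 (adjusted p = 0.459) and -0.06 without Chd8+/- replicate 1. The low value belonged to replicate 2, the library with few neuronal and many meningeal transcripts. Of 9 astrocyte markers, Aqp4, Gfap and S100b averaged under 1 CPM at this stage, while the summed level of the whole list was 601 to 618 CPM in Chd8+/+ and 619.5 to 639.6 CPM in Chd8+/-. The part of tissue makeup in the Ndrg2 values was not tested.

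The remaining 5 neighbours overlapped between genotypes at E12.5. Hnrnpc ranged from 496 to 578 CPM in Chd8+/+ and from 524 to 564 CPM in Chd8+/-, Sall2 from 207 to 241 and from 202 to 227 CPM, and Zfp219 from 170 to 193 and from 181 to 187 CPM. Arhgef40 ranged from 92.7 to 113 CPM in Chd8+/+ and from 96.1 to 106 CPM in Chd8+/-, and Rpgrip1 from 1.52 to 1.77 and from 1.56 to 1.71 CPM. Their log2 fold changes ran from -0.03 for Sall2 to 0.02 for Hnrnpc, and leaving out single libraries turned the sign of each of the 5, and of Supt16 (0.0028 without Chd8+/+ replicate 2). For Rpgrip1 the interval (-0.35 to 0.33) could not show a change of that size at this depth.

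At P5 the nearest protein-coding genes before and after Chd8 had the lowest values relative to controls among the 10 neighbours, and neither passed the adjusted threshold. None of the 10 neighbours had an adjusted p under 0.05 by edgeR, where 0.00536% of genes did (1 gene, Chd8), and the smallest adjusted p was 0.176. DESeq2 called none of the neighbours, against 5.28% of the genes it tested. An unadjusted p under 0.05 was reached by 2 of 10, Supt16 and Rab2b, a share close to the 17.8% of all genes; both were lower, as were 9.77% of all genes. Log2 fold changes were below 0 for 7 neighbours, against 49.6% of all genes, and above 0 for 3, with a median of -0.04 beside 0.0017 over all genes. Genotypes did not overlap for 3 of 10 (Supt16, Rab2b and Tox4), where 23.2% of all genes did not, and all 3 were lower in Chd8+/-, where 12.2% of all genes were.

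Supt16 measured 62.3, 67.4 and 62.1 CPM in Chd8+/+ and 56.3, 61.3 and 55.7 CPM in Chd8+/-. The highest Chd8+/- library lay just under the lowest control. The level was 90.3% of Chd8+/+ (95% interval 83.7 to 97.5%), a log2 fold change of -0.15 (SE 0.05, unadjusted p = 0.0135, adjusted p = 0.176 by edgeR and 0.122 by DESeq2). Rab2b measured 8.62, 9.39 and 8.55 CPM in Chd8+/+ and 7.44, 7.88 and 7.45 CPM in Chd8+/-. All 3 Chd8+/- libraries were below the controls, and the gap between the nearest libraries was wider than for Supt16 relative to the level. The level of Rab2b was 85.7% of Chd8+/+ (76.0 to 96.6%), a log2 fold change of -0.22 (SE 0.08, unadjusted p = 0.0167, adjusted p = 0.190 by edgeR and 0.239 by DESeq2). The intervals of both genes lay above that of Chd8 at P5, whose upper bound was -0.54, while the lowest bound among the neighbours was -0.40 (Rab2b). Gm43766, which begins between Chd8 and Rab2b and overlaps Rab2b, measured 1.59, 1.46 and 1.71 CPM in Chd8+/+ and 1.84, 1.58 and 1.81 CPM in Chd8+/-. Its genotypes overlapped and its log2 fold change was above 0 (0.13, SE 0.14, adjusted p = 0.654, edgeR).

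**Figure D2:**
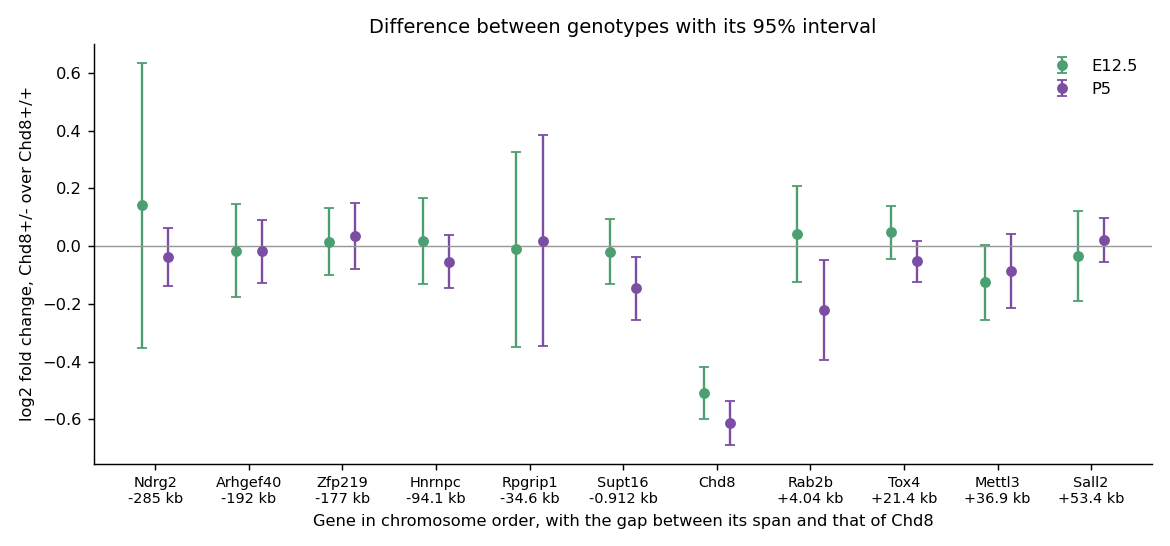
Log2 fold change of Chd8+/- over Chd8+/+ (y axis) with its 95% interval for Chd8 and its neighbours, in chromosome order with the gap to Chd8 in kb under each name, at E12.5 (green) and P5 (violet). The Chd8 intervals lie below those of all 10 neighbours, and only those of Supt16 and Rab2b at P5 exclude 0 among the neighbours.

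The unadjusted p of Supt16 and of Rab2b at P5 depended on single libraries, and the size of the differences moved with them. Without Chd8+/- replicate 3, the library with high Rn7sk and Rpph1, the log2 fold change was -0.11 for Supt16 (unadjusted p = 0.0606) and -0.20 for Rab2b (unadjusted p = 0.0544). Without Chd8+/+ replicate 2, which had the highest value of both genes, it was -0.11 for Supt16 (unadjusted p = 0.0680) and -0.18 for Rab2b (unadjusted p = 0.0654). The direction held in all 19 alternative settings for both genes, with an unadjusted p under 0.05 in 17 of 19 for Supt16 and 16 of 19 for Rab2b and no adjusted p under 0.0644. Other markers differed between the same libraries. Choroid plexus genes were lower in 6 of 6 without overlap, with a summed level of 433 to 561 CPM in Chd8+/+ and 318 to 376 CPM in Chd8+/-. Striatal medium spiny neuron genes were lower in 7 of 7 without overlap, at 293 to 320 CPM and 211 to 265 CPM. Endothelial genes were lower in 4 of 5, at 172 to 187 CPM and 150 to 170 CPM. An unadjusted p under 0.05 (edgeR) was reached by 6 choroid plexus, 7 striatal and 4 endothelial genes, all lower, against 9.77% of all genes. Of all genes, 12.2% were lower without overlap. Cortical progenitor genes were lower in 7 of 8 (median log2 fold change -0.12), at 205 to 230.1 CPM and 191 to 221 CPM, and erythrocyte genes in 3 of 3 tested, at 97.6 to 105 CPM and 79.8 to 101 CPM, and both sums overlapped between genotypes. Meningeal genes went the other way, higher in 4 of 5 (median 0.13), at 210.1 to 233 CPM and 204 to 264 CPM. None of these markers was called by edgeR, which called 0.00536% of all genes at P5 (1 gene, Chd8). Hbb-y was the 1 marker of these lists that averaged under 1 CPM at P5. The part of the markers in the Supt16 and Rab2b values was not tested. In bulk tissue, fewer cells of a type and less RNA per cell cannot be told apart.

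**Figure D3:**
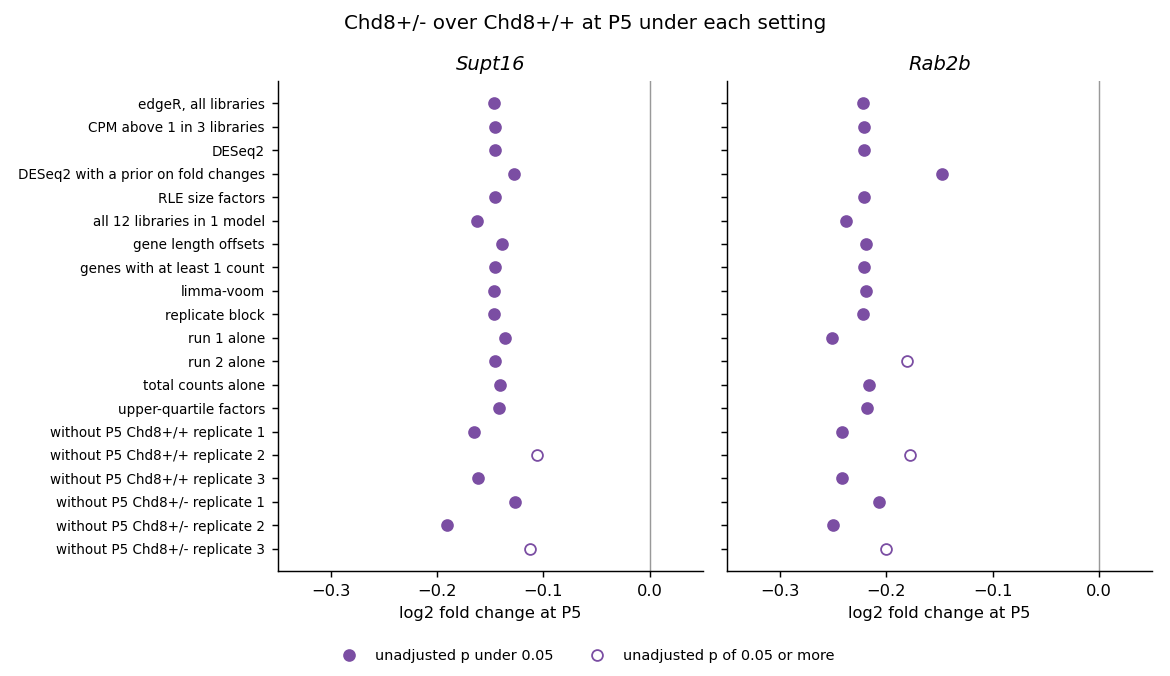
Log2 fold change at P5 (x axis) of Supt16 (left) and Rab2b (right) with all libraries and under 19 alternative settings (y axis), with filled points where the unadjusted p is under 0.05. All points lie left of 0, and the open points include those without Chd8+/+ replicate 2 or without Chd8+/- replicate 3 for both genes.

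Tox4 and Mettl3, next along the chromosome, were closer to controls at P5. Tox4 measured 77.6, 76.2 and 75.3 CPM in Chd8+/+ and 74.3, 73.5 and 72.9 CPM in Chd8+/-. The genotypes did not overlap, but the difference was small, with a log2 fold change of -0.05 (SE 0.03, interval -0.12 to 0.02, adjusted p = 0.421, edgeR). Over the alternatives it ran from -0.07 with all 12 libraries in 1 model to -0.02 with gene length offsets. Mettl3 measured 20.6, 20.1 and 18.9 CPM against 19.3, 18.6 and 18.3 CPM, and the genotypes overlapped. Its log2 fold change was -0.09 (SE 0.06, interval -0.22 to 0.04), and it was -0.13 from run 1 alone and -0.02 from run 2 alone. Sall2, the last on that side, ranged from 90.4 to 94.4 CPM in Chd8+/+ and from 90.7 to 95.7 CPM in Chd8+/-.

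The neighbours beyond Supt16 overlapped between genotypes at P5. Rpgrip1 ranged from 1.39 to 1.74 CPM in Chd8+/+ and from 1.31 to 1.74 CPM in Chd8+/-, and its exons share bases with Supt16. Hnrnpc ranged from 164 to 172 CPM and from 154 to 168 CPM, with a log2 fold change of -0.05 (interval -0.15 to 0.04). Zfp219 ranged from 36.5 to 38.4 CPM and from 35.7 to 39.3 CPM. Arhgef40 ranged from 50.8 to 55.4 CPM and from 49.8 to 55.1 CPM. Ndrg2, by now an abundant transcript, ranged from 225 to 237 CPM in Chd8+/+ and from 212 to 235 CPM in Chd8+/-, with a log2 fold change of -0.04 (interval -0.14 to 0.06). Leaving out 1 library at a time moved Hnrnpc between -0.08 and -0.02, the latter without Chd8+/- replicate 2, and turned the sign of Ndrg2 (0.0071 without Chd8+/- replicate 1), Arhgef40 and Rpgrip1.

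The wider surroundings of Chd8 were compared by distance. Within 1 Mb, the annotation held 129 genes besides the neighbours and Chd8, many of them T cell receptor alpha variable segments (67 genes) or olfactory receptors (8 genes) with too few counts to test. With the 10 neighbours, 17 genes were tested within 1 Mb at E12.5 and 15 at P5, all of them within 0.5 Mb. The farthest was Mettl17 at 305 kb, and after Chd8 none lay beyond Sall2 at 53.4 kb. None of these genes was called by edgeR or DESeq2 at either stage. DESeq2 gave no adjusted p for Gm16617 and Rpgrip1 at either stage, Gm26590 and Snord8 at E12.5, or Tmem253 and Gm43766 at P5. An unadjusted p under 0.05 by edgeR was reached by 0 at E12.5 and by 2 at P5, Supt16 and Rab2b. Their median log2 fold change was 0.02 at E12.5 and -0.04 at P5. From 1 to 5 Mb, the median was -0.01 over 113 genes at E12.5 and -0.0075 over 119 genes at P5, with none called by edgeR and with 8 and 27 genes at an unadjusted p under 0.05, against 5.15% and 17.8% of all genes.

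A pair of annotated transcripts lies inside the Chd8 span. Gm26590, antisense to Chd8 with 64.5% of its exon bases shared, had 0.27 and 0.30 CPM on average in Chd8+/+ and Chd8+/- at E12.5 (log2 fold change 0.18, SE 0.30). Snord8, a small nucleolar RNA, had 0.21 and 0.27 CPM (0.33, SE 0.35). Neither had enough counts to be tested at P5. Among the other genes of the window, Slc39a2, a zinc transporter gene 301 kb away, and Mettl17, a mitochondrial ribosome assembly factor 305 kb away, had the smallest p at E12.5. Slc39a2 measured 5.79, 4.69 and 4.48 CPM in Chd8+/+ and 3.97, 4.21 and 4.21 CPM in Chd8+/-, without overlap (log2 fold change -0.27, SE 0.13, adjusted p = 0.942), and its highest control lay well apart from the other 5 libraries. At P5 its mean was 8.60 CPM in Chd8+/+ and 9.66 CPM in Chd8+/-, in the other direction (log2 fold change 0.17, adjusted p = 0.529). Mettl17 averaged 29.5 and 26.9 CPM at E12.5 (log2 fold change -0.13, adjusted p = 0.942). Gm16617, which overlaps Arhgef40, averaged 0.27 and 0.20 CPM at P5 (log2 fold change -0.47, SE 0.45, adjusted p = 0.621), a lower fold change than that of any neighbour, at few counts.

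**Figure D4:**
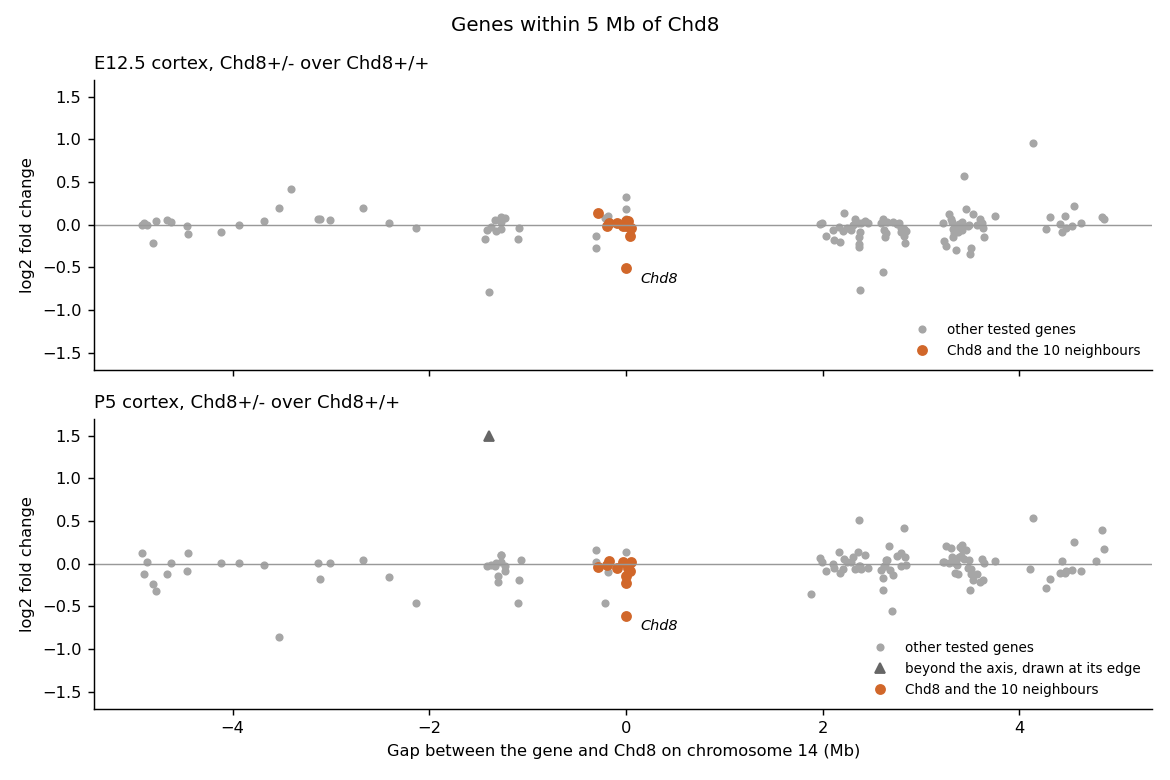
Log2 fold change of Chd8+/- over Chd8+/+ (y axis) of every tested gene within 5 Mb of Chd8 by its gap to Chd8 in Mb (x axis), at E12.5 (top) and P5 (bottom). Chd8 stands below its 10 neighbours at both stages, and the P5 triangle is Rpph1 (log2 fold change 4.49, drawn at the edge), whose value comes from 1 library with 909 counts.

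The neighbours were also compared between stages. Between E12.5 and P5 in Chd8+/+, 8 of 10 neighbours passed an adjusted p of 0.05, where 83.1% of all genes did. Of them, 7 fell, where 41.7% of all genes did, and 1 rose, against 41.4%. Stage, hemispheres dissected, sequencing runs and the count table of each stage went together, so they cannot be told apart.

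Zfp219 fell 4.76-fold (log2 fold change -2.25, SE 0.05), Supt16 fell 4.28-fold (-2.10, SE 0.05) and Hnrnpc fell 3.09-fold (-1.63, SE 0.06). Sall2 fell 2.30-fold and Mettl3 2.23-fold. Arhgef40 fell 1.88-fold and Tox4 1.43-fold. Ndrg2 rose 8.31-fold (3.06, SE 0.18), in all 3 P5 libraries above all 3 of E12.5. Adjusted p was 1.02e-08 or less for each of these 8. Chd8 fell too, with a log2 fold change of -0.64. Rpgrip1 (log2 fold change -0.0073, interval -0.34 to 0.32) and Rab2b (0.0090, interval -0.14 to 0.15) did not pass, and for Rab2b the interval is narrow.

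Levels per length, over all exon bases of a gene, put the neighbours in an order. Shared exon bases were not taken out, which bears most on Rab2b (64.0% shared), then Supt16 (23.4%), Mettl3 (21.1%) and Tox4 (18.7%). At E12.5 in Chd8+/+, Hnrnpc was highest at 184 CPM per kb of exon, followed by Supt16 (62.1), Zfp219 (55.2), Sall2 (39.8), Tox4 (16.1), Chd8 (14.4), Ndrg2 (13.2), Arhgef40 (9.80), Mettl3 (8.60), Rab2b (2.15) and Rpgrip1 (0.132). Chd8 and Ndrg2, and Arhgef40 and Mettl3, overlapped in their library ranges, while the other neighbours in this order did not. At P5 in Chd8+/+, Ndrg2 led at 109 CPM per kb, followed by Hnrnpc (59.4), Sall2 (17.3), Supt16 (14.5), Zfp219 (11.6), Tox4 (11.2), Chd8 (9.26), Arhgef40 (5.22), Mettl3 (3.86), Rab2b (2.17) and Rpgrip1 (0.131). Zfp219 and Tox4 overlapped there. In Chd8+/- the order at P5 was the same, and at E12.5 Ndrg2 (14.5 CPM per kb) was listed before Chd8 (10.2 CPM per kb), with overlapping ranges from Tox4 through Arhgef40.

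**Figure D5:**
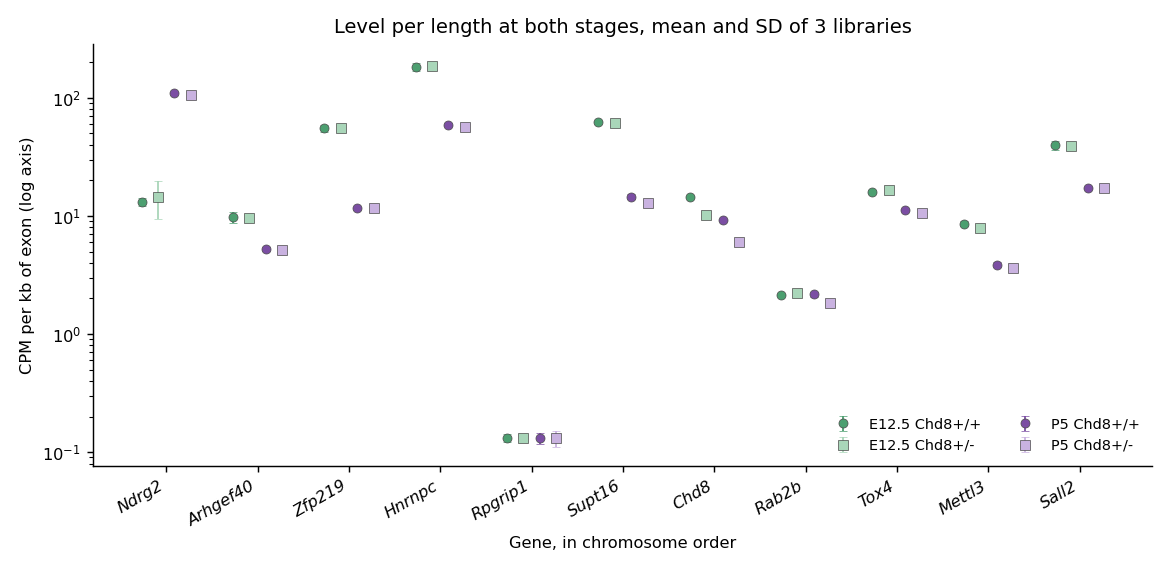
Level per length of Chd8 and its neighbours (y axis, CPM per kb of exon, log axis) in the 4 groups, as the mean of 3 libraries with its SD. Ndrg2 is higher at P5, Rpgrip1 lies near the same level at both stages, and so does Rab2b in Chd8+/+. In Chd8+/- Rab2b is lower at P5 (1.84 against 2.22 CPM per kb). The other 7 neighbours and Chd8 are lower at P5.

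The change with age was compared between genotypes through the interaction of genotype and stage. None of the 10 neighbours had an adjusted p under 0.05 in edgeR, as for 0% of all genes, and DESeq2 called none of the 8 to which it gave an adjusted p, against 0.0938%; Rab2b and Rpgrip1 had none. An unadjusted p under 0.05 was reached by 2 of 10, against 10% of all genes, and both were below 0, as for 6.87%. Rab2b had the smallest: in Chd8+/- it fell between E12.5 and P5 by 0.27 on the log2 scale (adjusted p = 0.00217), whereas in Chd8+/+ the change was 0.0090. The difference was -0.28 (SE 0.10, unadjusted p = 0.0118, adjusted p = 0.406), so it did not hold after adjustment. Tox4, on the same side of Chd8, had a difference of -0.12 (SE 0.05, unadjusted p = 0.0272, adjusted p = 0.453), with an unadjusted p under 0.05 in 7 of 24 alternatives. Supt16 had a difference of -0.14 (SE 0.07, adjusted p = 0.506). Without E12.5 Chd8+/+ replicate 1 the difference was -0.06 for Tox4 and -0.08 for Supt16. Chd8 itself had a difference of -0.12 (adjusted p = 0.452), which was -0.03 with gene length offsets.

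The functional partners of the neighbours lie elsewhere in the genome and were read as a comparison. Of 15 other genes that write, erase or read m6A, none was called by edgeR or DESeq2 at either stage. At an unadjusted p under 0.05 there were 0 at E12.5, against 5.15% of all genes, and 3 at P5, all lower, against 17.8% of all genes and 9.77% lower. Genotypes did not overlap for 8 of the 15 at P5, 7 of them lower, against 23.2% of all genes and 12.2% lower. At E12.5 they did not overlap for 0, against 11.3%. The list's median log2 fold change at P5 was -0.04. Virma, the scaffold of the writer complex, had the smallest p at P5 (56.5 and 51.0 CPM on average, log2 fold change -0.15, adjusted p = 0.128, edgeR). Mettl14, the partner with which Mettl3 forms the catalytic pair, averaged 55.1 and 55.4 CPM at E12.5 and 21.1 and 20.7 CPM at P5. At E12.5 Cbll1, a ubiquitin ligase of the complex, had the smallest p (log2 fold change 0.11, adjusted p = 0.947).

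Of 10 genes of FACT, other histone chaperones and elongation factors, none was called. At P5 genotypes did not overlap for 5 of them, 3 lower, against 23.2% of all genes and 12.2% lower. Ssrp1, the other subunit of FACT, averaged 406 and 413 CPM at E12.5 and 133 and 132 CPM at P5. At P5, where Supt16 was 90.3% of controls, the log2 fold change of Ssrp1 was -0.01 (SE 0.03). An unadjusted p under 0.05 was reached by 1 gene at E12.5 (Chaf1b, a subunit of CAF-1, log2 fold change 0.11, adjusted p = 0.942) and by 3 at P5 (against 5.15% and 17.8% of all genes), of which Supt6, an elongation factor, had the smallest (-0.11, adjusted p = 0.195).

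Of 17 genes of the hnRNP family, edgeR called none, and an unadjusted p under 0.05 was reached by 0 at E12.5 and by 3 at P5, all lower, beside the same 5.15% and 17.8% of all genes, with 9.77% lower at P5. Hnrnpm, a splicing regulator, averaged 133 and 121 CPM at P5 (log2 fold change -0.14, adjusted p = 0.121 by edgeR and 0.0381 by DESeq2), the 1 gene of the partner lists that DESeq2 called between genotypes, where it called 5.28% of all genes at P5. Hnrnpab had the smallest p at E12.5 (0.08, adjusted p = 0.950). Of 8 genes of the PTW/PP1 phosphatase complex and the TOX family, none was called and none had an unadjusted p under 0.05, with Tox3 at E12.5 (0.09, adjusted p = 0.961) and Tox2 at P5 (-0.10, adjusted p = 0.332) the closest.

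Paralogs of the other neighbours were compared in the same way. Of 11 listed, 11 were tested at E12.5 and 10 at P5, with none called by either tool. An unadjusted p under 0.05 was reached by 1 gene at each stage, against 5.15% and 17.8% of all genes: by Plekhg4, a guanine nucleotide exchange factor related to Arhgef40, at E12.5 (log2 fold change -0.49, adjusted p = 0.942) and by Ndrg3 at P5 (0.11, adjusted p = 0.196). Rab2a, the close paralog of Rab2b, averaged 275.9 and 283.9 CPM at P5 (log2 fold change 0.04, SE 0.04). At P5, genotypes did not overlap for 2 of 10 paralogs, 1 of them lower, against 23.2% of all genes and 12.2% lower. The count was 5 of 17 hnRNP genes (5 lower) and 2 of 8 PTW/PP1 and TOX genes (2 lower). With stage, in Chd8+/+, 15 of 15 m6A genes passed (14 lower) and 9 of 10 chaperone and elongation genes (9 lower). So did 17 of 17 hnRNP genes (17 lower), 7 of 8 PTW/PP1 and TOX genes (7 lower) and 10 of 11 paralogs (4 lower and 6 higher). Of all genes, 83.1% passed, 41.7% lower and 41.4% higher.

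The gene most like each neighbour over the 12 libraries was found by Pearson correlation of log2 CPM, a description dominated by the difference between stages. These were Zfp146 for Supt16 (r = 0.9996), Ajuba for Zfp219 (0.9996), Rps6 for Hnrnpc (0.9995), Glra2 for Ndrg2 (0.9993), Tut1 for Mettl3 (0.9985), Specc1l for Tox4 (0.9985), Usp42 for Sall2 (0.9981) and Srrt for Arhgef40 (0.9980). For the neighbours that changed little with stage the best values were lower, 0.940 for Rab2b with Capn7 and 0.784 for Rpgrip1 with Casc1. After removing the stage means, r over these 10 pairs ran from 0.802 for Rpgrip1 with Casc1 to 0.974 for Ndrg2 with Glra2. Each partner had been picked as the best of 19675 genes in the same 12 libraries, before the stage means were removed. The choice itself favours high values.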

How the data were processed

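Cortical RNA of both genotypes and stages was sequenced as paired-end, dUTP-stranded libraries. Each library had 2 runs, whose names differed between the stages. Per the submitters' processing notes and the study's methods, the authors trimmed reads with Trim Galore 0.4.1, aligned them to GRCm38.p4 with TopHat2 2.1.0 and counted them with featureCounts 1.5.0. The deposited values are raw counts per gene and run. The recorded P5 command set no strand, and the E12.5 command is not given in the sources used here. Both runs of a library were summed.

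Genotypes were compared within each stage with edgeR 4.0.16 (R 4.3.3; TMM scaling, filterByExpr, quasi-likelihood test, Benjamini-Hochberg adjustment at 0.05 over all genes tested). Stages and the interaction were fitted on all 12 libraries. A difference is the log2 fold change of Chd8+/- over Chd8+/+ or of P5 over E12.5. Levels are CPM on TMM-scaled library sizes, set within a stage except for levels per kb, which were set over both. Alternatives were DESeq2 1.42.0, limma-voom 3.58.1, other scalings and filters, single runs, a replicate block and leaving out each library. The procedure was tested on simulated data. The 10 genes and all lists were chosen with earlier results of these data known. Named were the 10 neighbours and Chd8, genes within 1 Mb that overlap Chd8, were called or had the 2 smallest p per stage, per partner list the called gene or that with the smallest p, and for each neighbour the gene with the highest correlation. Mettl14, Ssrp1, Rab2a, Gm43766, Tmem253, Rn7sk and Rpph1 were added after their values were seen. Intervals cover the spread between libraries.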

Additional observations from a re-analysis of the deposited data

How the results depend on the processing

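No neighbour was called in any of the 19 alternatives at E12.5, the 19 at P5 or the 24 of the interaction, where DESeq2 gave no adjusted p for Rpgrip1 in any of these comparisons or for Rab2b in the interaction, and 8 were called in every alternative of the stage comparison except that of Chd8+/-, with 9. In that comparison Rab2b turned from 0.0090 to -0.27 (adjusted p = 0.00217); the cause was not tested. Rab2b at E12.5 was -0.05 from run 1 alone and 0.15 from run 2 alone. With the replicate number as a block, 0 neighbours were called at E12.5, at P5 and in the interaction, and Chd8 at E12.5 kept a log2 fold change of -0.51 with an adjusted p of 0.346. Same-numbered libraries did not deviate together at E12.5 (r = -0.218, -0.0998 and -0.0885) and did so weakly at P5 (0.237, 0.113 and 0.0499), where not every library correlated best with its own number, so the numbers were not taken as pairs. At P5, the block raised the genes called from 1 to 4. Over all P5 genes, edgeR called 1 and DESeq2 653, edgeR called 995 with every gene of at least 1 count and 327 without Chd8+/- replicate 2, none of them a neighbour. No scaling moved the median of all genes by over 0.1 in a genotype comparison. Rpgrip1, with at most 95 counts per library, is limited by depth, and Rab2b by the exon bases it shares with Tox4 and Gm43766. Strand was not used in the P5 counting, so reads of overlapping genes could not be separated.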
